A study of Mus musculus with 5 samples.

Results

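The IL-23 and IL-17 cytokine axis was followed through 7 genes, taken by symbol from the 31053 genes counted in each library. Il17a, Il17f and Il22 encode secreted cytokines, Il23a and Il12b the subunits of the cytokine IL-23, and Il23r and Il12rb1 the chains of its receptor. Single-cell RNA was counted in 5 libraries of mouse skin, 1 library a group, so no difference between groups has a replicate check and none was tested. The groups set skin of a floxed mutant beside drug-induced skin inflammation and normal skin.

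All mice were C57BL/6. Lesional whole skin came from K5. Pp6fl/fl mice at 18 weeks of age, and non-lesional epidermis from K5. Pp6fl/fl mice at 10 weeks. Imiquimod dermis came from wild-type mice of 10 weeks that had imiquimod on the ear for 5 days, and untreated dermis and untreated epidermis from wild-type mice of 10 weeks. K5 is the usual short name of keratin 5, whose promoter drives expression in basal keratinocytes, while the labels do not spell out a Cre. Imiquimod is an agonist of the RNA sensor TLR7 and is widely used to bring about psoriasis-like inflammation in mouse skin. Lesional and non-lesional material differed in tissue layer and age as well as in lesion state, and these cannot be told apart. Lesional skin and imiquimod dermis differed in genotype, treatment, age and tissue layer, and these cannot be told apart either. The labels name no body site for the untreated or the K5. Pp6fl/fl mice.

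IL-23 is released mainly by myeloid cells and acts on lymphocytes that carry its receptor, where it sustains production of IL-17A, IL-17F and IL-22. Its p40 subunit (Il12b) is shared with IL-12, and its receptor chain IL-12Rβ1 (Il12rb1) is shared with the IL-12 receptor, which adds IL-12Rβ2 (Il12rb2) in place of IL-23R. In mouse skin, dermal γδ T cells are a known source of IL-17, while the γδ T cells resident in the epidermis are a separate lineage. IL-17 and IL-22 act on keratinocytes and stromal cells to induce chemokines and antimicrobial proteins.

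After cell filters the libraries held 2564 cells in lesional skin, 2803 in non-lesional epidermis, 4774 in imiquimod dermis, 519 in untreated dermis and 898 in untreated epidermis, with median depths from 3401.5 to 8220.5 UMIs a cell (unique molecular identifiers, each a captured transcript molecule). Each cell was given a class from marker genes that include none of the 7 genes. A cell whose second-best class came too close was left unassigned, which took 1370 cells of the imiquimod dermis and 989 of the non-lesional epidermis, against 136, 58 and 56 in the lesional, untreated dermis and untreated epidermis libraries. Imiquimod lymphocytes carried myeloid RNA: Lyz2 was seen in 97.3% of gated γδ cells there and in 7.04% in lesional skin. The libraries shared 47 cell barcodes over all pairs, 27 of them between imiquimod dermis and non-lesional epidermis, and lesional skin shared none with any other. CPM values are a gene's UMIs scaled to all UMIs of the summed class. Intervals are exact 95% intervals, cover counting error only and say nothing of the spread between mice.

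Il17a and Il17f lie on chr1:20730905-20734496 and chr1:20777146-20790617 (GRCm38), 42.65 kb apart and on opposite strands. Il22 lies on chr10:118204942-118210047, Il23a on chr10:128296139-128298752, Il12b on chr11:44400063-44414033, Il23r on chr6:67422932-67491855 and Il12rb1 on chr8:70808449-70821424. RefSeq promoters (GRCm38.p6, 250 bases before to 50 after the start of transcription) were found for 5 of the 7 genes; those of Il17a, Il17f, Il23r and Il22 are shown as the cytokine genes made by lymphocytes and the receptor chain particular to IL-23. Capitals mark AGGTCA on either strand, a motif bound by many nuclear receptors. The windows are chr1:20730655-20730954 (plus strand), chr1:20784221-20784520 (minus strand), chr6:67491806-67492105 (minus strand) and chr10:118204714-118205013 (plus strand).
Il17a: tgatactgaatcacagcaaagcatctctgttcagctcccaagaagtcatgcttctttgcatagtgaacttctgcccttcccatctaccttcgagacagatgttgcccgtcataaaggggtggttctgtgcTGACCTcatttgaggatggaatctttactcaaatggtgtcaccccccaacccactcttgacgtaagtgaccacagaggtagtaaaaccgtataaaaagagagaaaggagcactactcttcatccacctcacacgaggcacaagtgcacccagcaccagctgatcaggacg
Il17f: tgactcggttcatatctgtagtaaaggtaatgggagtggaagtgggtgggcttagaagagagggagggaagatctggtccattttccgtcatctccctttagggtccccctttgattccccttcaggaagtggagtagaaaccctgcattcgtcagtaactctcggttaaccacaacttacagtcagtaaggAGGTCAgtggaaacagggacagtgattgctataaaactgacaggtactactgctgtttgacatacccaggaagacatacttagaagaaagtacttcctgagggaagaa
Il23r: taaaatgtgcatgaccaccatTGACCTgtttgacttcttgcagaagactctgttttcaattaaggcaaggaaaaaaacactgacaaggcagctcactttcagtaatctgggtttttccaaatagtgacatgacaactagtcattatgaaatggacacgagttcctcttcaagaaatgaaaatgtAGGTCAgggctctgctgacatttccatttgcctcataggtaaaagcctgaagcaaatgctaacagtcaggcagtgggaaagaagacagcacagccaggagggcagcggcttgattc
Il22: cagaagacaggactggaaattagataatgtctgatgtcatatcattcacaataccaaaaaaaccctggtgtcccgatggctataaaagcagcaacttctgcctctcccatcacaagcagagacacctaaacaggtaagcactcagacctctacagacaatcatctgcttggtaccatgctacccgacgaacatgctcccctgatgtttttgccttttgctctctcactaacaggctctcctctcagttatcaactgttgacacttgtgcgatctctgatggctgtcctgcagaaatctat
The RefSeq start of Il17f lies inside the gene's annotated span. AGGTCA occurred at -120 from the start in Il17a, at -58 in Il17f, at 2 positions in Il23r, and nowhere in the Il22 or Il12b window. Of 32851 promoters of this length, 16.3% hold it. GGAAA, the core bound by NFAT factors, was searched on both strands and occurred 2 times in Il17f, 4 times in Il23r, 1 time in Il22, 3 times in Il12b and nowhere in Il17a; 61.3% of promoters hold it. TTCNNNGAA, a palindrome bound by STAT factors, occurred in none of the 5 windows and in 8.3% of promoters. These matches describe letters and are not binding sites.

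Il17a, the best-known IL-17 cytokine, was abundant in both inflamed libraries and nearly absent from epidermis. Lesional skin held 1584 UMIs in 94 cells, non-lesional epidermis 26 UMIs in 4 cells, imiquimod dermis 2147 UMIs in 346 cells, untreated dermis 49 UMIs in 10 cells and untreated epidermis 0. The cells that held it differed in their number of transcripts. In lesional skin 40 cells with at least 10 UMIs held 91.7% of the transcripts and the highest cell had 119. In imiquimod dermis 279 of the 346 positive cells had 1 UMI, and the 10 highest cells held 67.2%, with 381 UMIs in the highest. In untreated dermis 34 of the 49 UMIs came from 1 cell, and in non-lesional epidermis 23 of 26 did.

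Il17f, which forms homodimers and pairs with IL-17A, was highest in imiquimod dermis. Lesional skin held 542 UMIs in 64 cells, non-lesional epidermis 15 UMIs in 1 cell, imiquimod dermis 6644 UMIs in 428 cells, untreated dermis 17 UMIs in 10 cells and untreated epidermis 0. The single non-lesional cell with Il17f also held Il17a. Il22, an IL-10 family cytokine that acts on epithelia, was also highest in imiquimod dermis, by a wider margin. Lesional skin held 29 UMIs in 9 cells, non-lesional epidermis 14 in 4 cells, imiquimod dermis 8930 in 720 cells, untreated dermis 12 in 6 cells and untreated epidermis 0. Il22 shares 59.4% of its 25-base words with its duplicate Iltifb, so reads from the shared part may go uncounted. The Il22 counts may therefore be too low, by an amount that was not measured. Iltifb had 2 UMIs in lesional skin and 57 in imiquimod dermis.

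**Figure D1:**
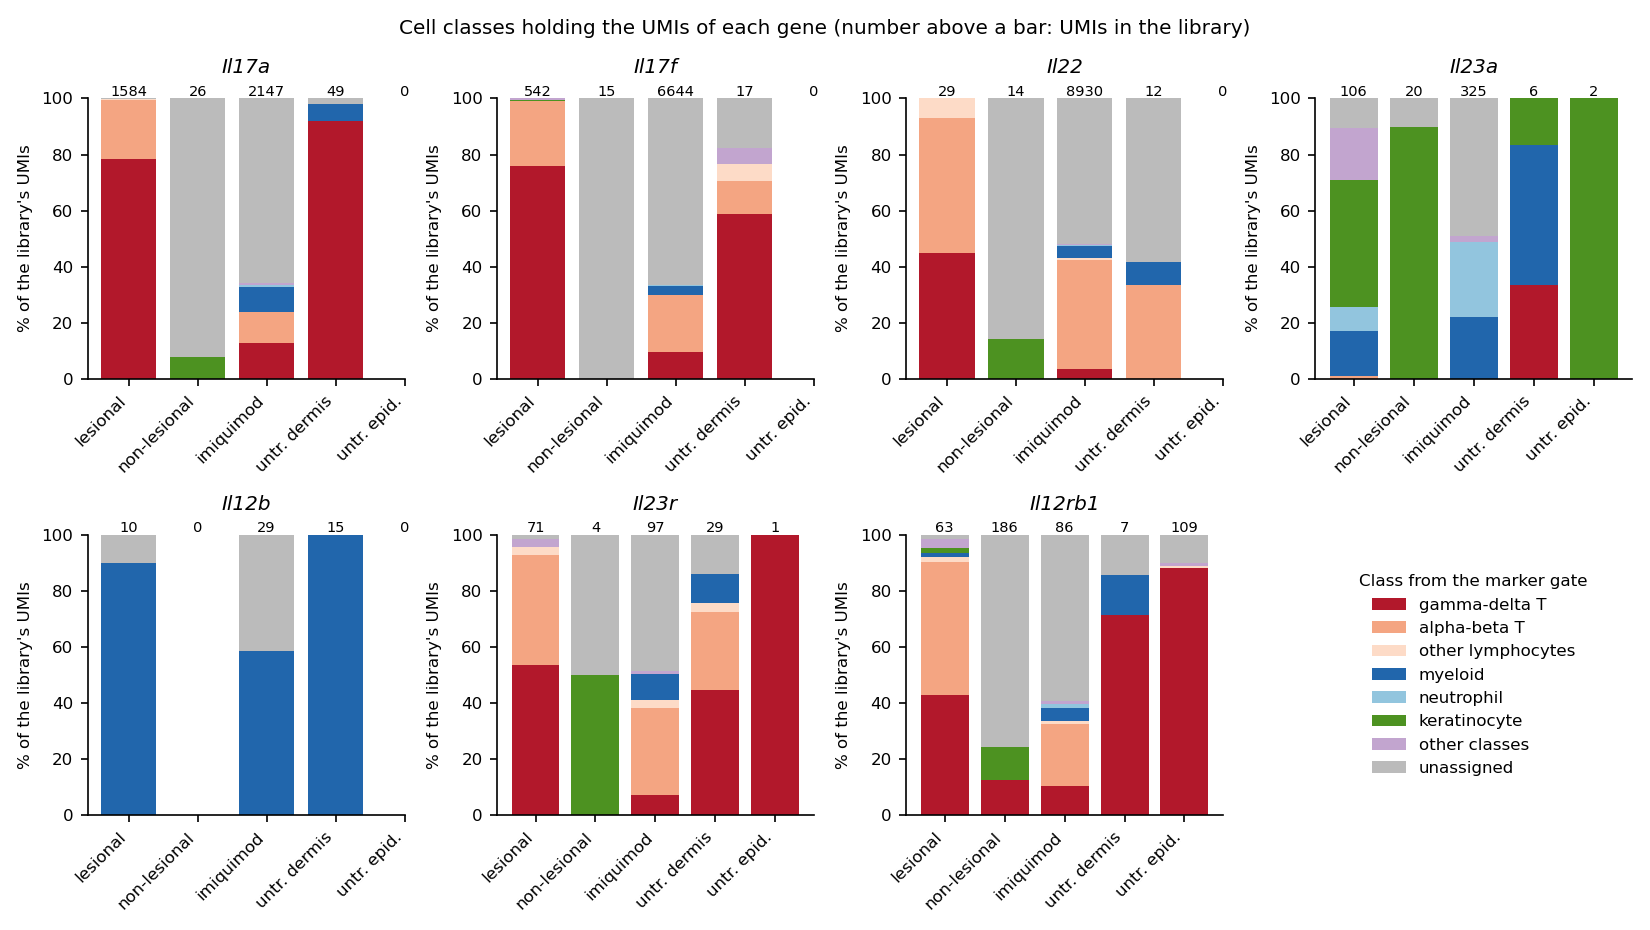
Percent of each gene's UMIs in a library (vertical axis) held by each gated cell class, for the 7 genes in the 5 libraries; the number above a bar is the library's UMIs of that gene. In lesional skin γδ and αβ T cells hold nearly all of the 1584 Il17a UMIs, while in imiquimod dermis 66.0% of 2147 lie in unassigned cells.

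In lesional skin the gate placed 1579 of the 1584 Il17a UMIs in lymphocytes. In imiquimod dermis it placed 507 of 2147, and 1417 (66.0%) lay in unassigned cells, of which 1146 were in cells that joint clustering put with lymphocytes. The like held for Il17f, with 4418 unassigned UMIs (66.5%), and for Il22, with 4641 (52.0%). A further 1508 Il17a, 1637 Il17f and 1042 Il22 UMIs lay in 215 barcodes removed from the imiquimod library as doublets, against 6, 7 and 0 in the 73 removed from lesional skin. Values with a looser gate or with clusters therefore stand beside the main ones where they differ.

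Imiquimod dermis also carried these cytokine transcripts at a low rate in cells of all kinds. Il22 was seen in 36.5% of its lymphocytes (median 5700.5 UMIs a cell) and in 14.1% of its 2516 myeloid cells (median 7852.5 UMIs), where it came to 17.4 CPM. Il17a was seen in 19.9% of lymphocytes and 6.72% of myeloid cells, and Il17f in 37.8% and 7.27%. In lesional skin Il17a was seen in 20.1% of lymphocytes (median 4469 UMIs) and in 0.509% of 393 myeloid cells (median 10641 UMIs). Shares of positive cells in imiquimod dermis below those of its myeloid cells are not read as above background here, though classes differ in depth.

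Among gated lymphocytes, Il17a was at 740 CPM in lesional skin (704 to 777; 448 cells), 0 of 129 cells in non-lesional epidermis, 474 CPM in imiquimod dermis (433 to 517; 156 cells), 129 CPM in untreated dermis (94.0 to 172; 85 cells) and 0 of 329 cells in untreated epidermis. The 0 counts allow up to 2.33% of cells with a UMI in non-lesional epidermis and up to 0.912% in untreated epidermis. With clusters, 2 of 939 non-lesional lymphocytes held 24 Il17a UMIs (7.31 CPM), and 372 untreated epidermis lymphocytes held 0. By the gate, lesional lymphocytes were at least 91.9-fold higher than non-lesional ones, taking the empty library at 3 counts. The order from lesional skin to imiquimod dermis to untreated dermis had intervals that did not overlap, but the step between the inflamed libraries was small.

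Il17a in lymphocytes was 1.56-fold higher in lesional skin than in imiquimod dermis (1.41 to 1.73), which did not hold under other choices of cells. On the log2 scale the ratio was 0.64, and it was 0.099 with the looser gate, 0.075 with clusters and -1.08 with doublets kept. Il17a was 3.68-fold higher in imiquimod than in untreated dermis (2.71 to 5.10), and here too single cells weighed. One γδ cell held 220 of the 507 imiquimod UMIs and 1 γδ cell held 34 of the 45 untreated UMIs; without the highest cell of each library the log2 ratio was 3.08, against 1.88 with them. With the stricter gate, which left 44 imiquimod lymphocytes, the direction turned, to a log2 ratio of -0.37.

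Il17f was lower in lesional than in imiquimod lymphocytes, at 252 CPM (231 to 274) against 1852 CPM (1771 to 1935). The imiquimod level was 49.8-fold higher than the 37.2 CPM of untreated dermis (29.0 to 93.6). Lesional lymphocytes were 6.76-fold above untreated dermis. No Il17f UMI was seen in the gated lymphocytes of either epidermis, while clusters put the 15 of non-lesional epidermis in 1 lymphocyte. The order of the inflamed libraries was thus the reverse of that for Il17a by the main gate, and for Il17f it kept its direction in every alternative run.

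Of the 3 cytokine genes Il22 had the largest gap between the inflamed libraries. It was at 13.6 CPM in lesional lymphocytes (9.10 to 19.5) and at 3583 CPM in imiquimod lymphocytes (3470 to 3698), against 11.5 CPM in untreated dermis (3.12 to 29.3). The imiquimod level was 313-fold above untreated dermis (122 to 1148), and lesional lymphocytes were at 0.00379 of the imiquimod level, on the log2 scale -8.04. Lesional skin and untreated dermis were not distinguished at this depth, with a ratio of 1.19 (0.417 to 4.64). The direction between lesional skin and imiquimod dermis held in all alternatives run.

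The make-up of the cytokine transcripts therefore differed. UMIs count 3′ ends, so they do not grow with transcript length, though capture may differ between genes and Il22 may be undercounted beside Iltifb. Of 2145 UMIs of Il17a, Il17f and Il22 in lesional lymphocytes, 73.6% were Il17a, 25.03% Il17f and 1.35% Il22. Of 6323 in imiquimod lymphocytes, 8.02% were Il17a, 31.4% Il17f and 60.6% Il22. Of 62 in untreated dermis, 72.6% were Il17a, 21.0% Il17f and 6.45% Il22. The lesional and untreated profiles were both led by Il17a, and the imiquimod one by Il22; in untreated dermis 34 of the 45 Il17a UMIs came from 1 cell. Lesional lymphocytes held 0.0184 Il22 UMIs for each Il17a UMI (0.0123 to 0.0265), imiquimod lymphocytes 7.56 (6.89 to 8.31) and untreated ones 0.0889 (0.0232 to 0.244). With the looser gate the Il22 share of imiquimod dermis was 53.9% and with clusters 50.7%.

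γδ T cells were defined by Trdc, the constant chain of the δ receptor, and αβ T cells by Trac, Trbc1 or Trbc2 without Trdc. The lesional library had 142 γδ and 288 αβ cells, the imiquimod library 37 and 114, and untreated dermis 46 and 35. Trac was seen in 204, 87 and 24 of these αβ cells, and the rest were placed by Trbc1 or Trbc2. In both epidermal libraries nearly every gated lymphocyte was a γδ cell, 128 of 129 in non-lesional and 327 of 329 in untreated epidermis.

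In lesional skin γδ cells made up 31.7% of lymphocytes and held 78.7% of their Il17a (76.6 to 80.7) and 76.5% of their Il17f. Il17a was seen in 57 of 142 lesional γδ cells (40.1%) at 1830 CPM (1730 to 1935), and in 31 of 288 αβ cells (10.8%) at 242 CPM (217 to 270). Il17f was seen in 34 lesional γδ cells at 605 CPM and in 25 αβ cells at 92.2 CPM. Both genes were thus higher in γδ cells, in share of cells and in CPM. Il22 was sparse in both lesional classes, with 13 UMIs in 4 γδ cells and 14 in 4 αβ cells, where 1 cell held 11.

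In imiquimod dermis γδ cells made up 23.7% of lymphocytes and held 53.3% of Il17a, 32.3% of Il17f and 8.24% of Il22 UMIs. By the gate αβ cells held 90.5% of Il22, at 4714 CPM (4559 to 4874) in 31 of 114 cells, against 1050 CPM (938 to 1173) in γδ cells. By share of positive cells the order was the other way, with Il22 in 24 of 37 γδ cells (64.9%) and 27.2% of αβ cells. The αβ transcripts were concentrated, with 832 of 3468 in 1 cell. The γδ part was larger under the other choices of cells: γδ cells held 22.3% of Il22 and 46.3% of Il17f with the looser gate, and 31.1% and 58.1% with clusters. The αβ level of Il22 was 3953 CPM against 2075 CPM in γδ cells with the looser gate, and 3452 against 2955 CPM with clusters. Within αβ cells, the 35 that met the type 17 gate held 3353 Il22 UMIs (9779 CPM). The other 79 held 115 (293 CPM), of which 99 lay in 1 cell. A UMI was seen in 10.1% of these 79, below the 14.1% of myeloid cells. The median depths were 4469 and 7852.5 UMIs a cell, so these shares do not place the 79 cells at background. The type 17 gate asks for at least 3 of 11 markers such as Cd163l1, Ccr6, Maf and Il1r1, none of them among the 7 genes. Maf and Il1r1 are not limited to lymphocytes: imiquimod fibroblasts had them at 19.7 and 161 CPM. The part of free RNA in passing this gate in imiquimod dermis was not tested.

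Il17a in imiquimod γδ cells was at 897 CPM in 13 of 37 cells, but 220 of its 270 UMIs came from 1 cell, and without that cell the level was 170 CPM over 50 UMIs. The γδ share of imiquimod Il17a was then 17.4%. Il17f in these cells was spread more evenly, with 641 UMIs in 29 of 37 cells (2131 CPM; 1938 CPM without the highest cell). In αβ cells imiquimod dermis had 322 CPM of Il17a and 1823 CPM of Il17f. Among the gated cells the γδ lead in imiquimod Il17a thus rested on 1 cell. Without the highest cell of each class, imiquimod Il17a was at 706 CPM in γδ and 266 CPM in αβ cells with the looser gate, and at 896 and 235 CPM with clusters. In lesional skin the γδ level was 1669 CPM without the highest cell.

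**Figure D2:**
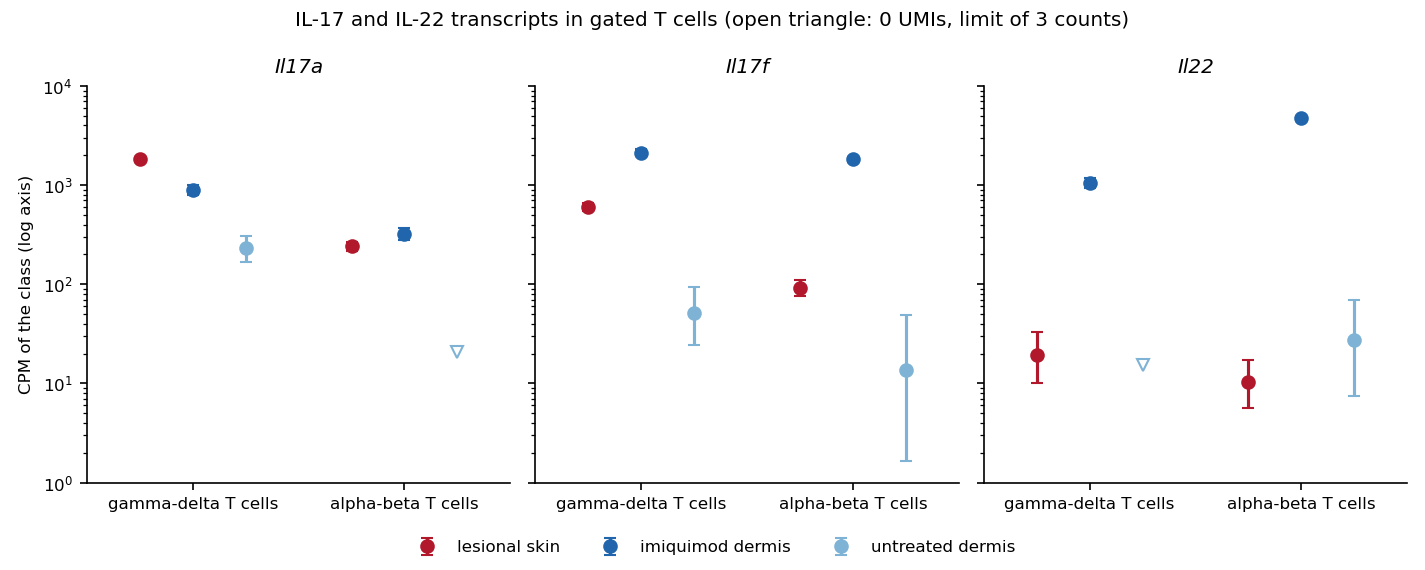
CPM of Il17a, Il17f and Il22 (log axis) in gated γδ and αβ T cells of lesional skin, imiquimod dermis and untreated dermis; bars are exact Poisson 95% intervals and an open triangle marks 0 UMIs at the limit of 3 counts. Il22 is at 4714 CPM in imiquimod αβ cells and at 10.2 CPM in lesional ones.

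Set between libraries within γδ cells, Il17f was lower in lesional skin than in imiquimod dermis, at 0.284 of its level, and Il22 at 0.0182. Il17a was 2.04-fold higher in lesional γδ cells (1.79 to 2.34), a ratio that holds the single imiquimod cell named above. With the looser gate the γδ ratios were 1.84 for Il17a, 0.217 for Il17f and 0.00917 for Il22, and with clusters 1.65, 0.150 and 0.00687. Within αβ cells Il17a was at 0.752 of the imiquimod level in lesional skin, Il17f at 0.0506 and Il22 at 0.00217; Il17a was at 0.429 with the looser gate and 0.470 with clusters. Against untreated dermis, imiquimod γδ cells had 41.4-fold more Il17f and at least 68.1-fold more Il22, and imiquimod αβ cells at least 15.7-fold more Il17a and 172-fold more Il22 (67.2 to 633). Untreated αβ cells held 0 Il17a, 2 Il17f and 4 Il22 UMIs.

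Almost all producing γδ cells met the type 17 gate. It took 134 of 142 γδ cells in lesional skin, 32 of 37 in imiquimod dermis and 25 of 46 in untreated dermis, and it held every γδ Il17a UMI in these libraries. In epidermis it took 7 of 128 γδ cells in non-lesional and 33 of 327 in untreated tissue, and none of those had an Il17a UMI. Within the type 17 γδ cells, Il17f was seen in 25.4% in lesional skin, 90.6% in imiquimod dermis and 16% in untreated dermis. In lesional αβ cells outside the gate, 96 Il17a UMIs lay in 9 of 179 cells, 56 of them in 1 cell.

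Single cells showed how the cytokines combined. In lesional lymphocytes 90 cells held Il17a and 59 held Il17f, with 32 holding both (35.6% of Il17a cells and 54.2% of Il17f cells). In imiquimod lymphocytes 31 held Il17a and 59 held Il17f, with 27 holding both (87.1% of Il17a cells and 45.8% of Il17f cells). Il22 accompanied Il17a in 4 of 90 lesional Il17a cells and in 25 of 31 imiquimod ones. With at least 3 UMIs of each gene asked for, which free RNA rarely reaches, Il17a and Il22 met in 3 of 58 lesional Il17a cells and 11 of 15 imiquimod ones. Both genes were thus often in the same imiquimod cells, while most lesional Il17a cells had no Il22 UMI.

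**Figure D3:**
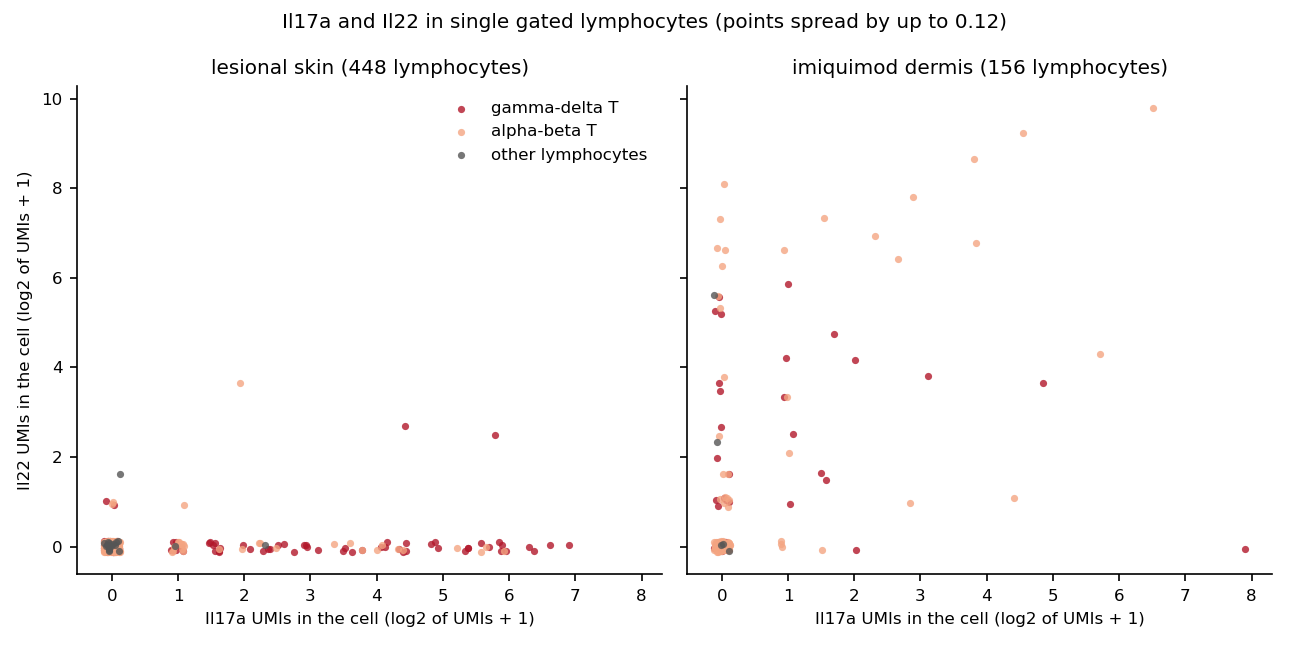
Il17a UMIs (horizontal, log2 of UMIs + 1) against Il22 UMIs (vertical, same scale) in each gated lymphocyte of lesional skin (448 cells) and imiquimod dermis (156 cells), coloured by T cell class. Of the 90 lesional cells with Il17a, 4 also hold Il22, and the imiquimod αβ cells rise to 832 Il22 UMIs.

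The lesional library held cells with Xist RNA and no Y-linked RNA and cells with the opposite, while no gated lymphocyte of the other libraries had Xist only. Among its gated lymphocytes, 164 cells with Y-linked RNA only held 791 Il17a UMIs in 46 cells (881 CPM), and 149 cells with Xist only held 142 UMIs in 9 cells (207 CPM). Il17f was at 345 and 144 CPM in the same 2 sets, and 131 cells with neither were at 1167 CPM of Il17a. These are parts of 1 library and not replicates, and their part in the lesional level was not tested.

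Il23a, the subunit particular to IL-23, was spread over classes. Lesional skin held 106 UMIs in 57 cells, non-lesional epidermis 20 in 16, imiquimod dermis 325 in 182, untreated dermis 6 in 5 and untreated epidermis 2 in 2. In imiquimod dermis the highest class was neutrophils, at 63.9 CPM (51.1 to 78.9), with 86 UMIs in 41 of 411 cells (9.98%; median 2946 UMIs a cell). Macrophages and monocytes there were at 3.20 CPM (2.47 to 4.08), seen in 2.15% of 2237 cells (median 7909 UMIs). Imiquimod lymphocytes held the gene in 0 of 156 gated cells, which allows up to 1.92%, and with clusters they held 2 UMIs. Lymphocytes were not free of it in untreated dermis, where 2 of the 6 UMIs lay in 2 gated lymphocytes. The neutrophil level stood far above that of macrophages, and the neutrophil share above the 1.92% limit, while the macrophage share lay close to it.

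Of the imiquimod Il23a UMIs the gate left 49.2% unassigned. Neutrophils held 26.5% by the gate and 66.2% by clusters, where 97 of 713 cells were positive at 59.7 CPM. Myeloid cells held 22.2% by the gate. Lesional neutrophils were few, with 9 UMIs in 3 of 73 cells at 38.3 CPM (17.5 to 72.7), and their ratio to imiquimod neutrophils was 0.599 (0.265 to 1.19). Untreated dermis had 0 gated neutrophils, so no ratio to it was formed. Macrophages and dendritic cells together had 2.10-fold more Il23a in imiquimod than in untreated dermis (0.689 to 10.4), on 72 against 3 UMIs, which does not separate them.

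In lesional skin the largest holder of Il23a was the keratinocyte, with 48 UMIs in 28 of 421 cells (45.3% of the library's Il23a). Keratinocytes also held 10918358 of the library's 30984526 UMIs over all genes. At 4.40 CPM (3.24 to 5.83) lesional keratinocytes were 3.88-fold above the 1.13 CPM of non-lesional keratinocytes (2.22 to 7.09), where 18 UMIs lay in 14 of 1674 cells. Untreated epidermis had 2 UMIs in 492 keratinocytes. Non-lesional lymphocytes held none in 129 cells, which allows up to 2.33% and does not separate the 0.836% of non-lesional keratinocytes from background. The lesional share, 6.65%, stood above the 0.223% of lesional lymphocytes, but the median depths were 21215 and 4469 UMIs a cell. Thinned to 2000 UMIs a cell, keratinocytes held 25% of lesional Il23a. The 36 UMIs in 183 lesional keratinocytes with Y-linked RNA only and 9 in 172 with Xist only came to 6.07 and 2.25 CPM.

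**Figure D4:**
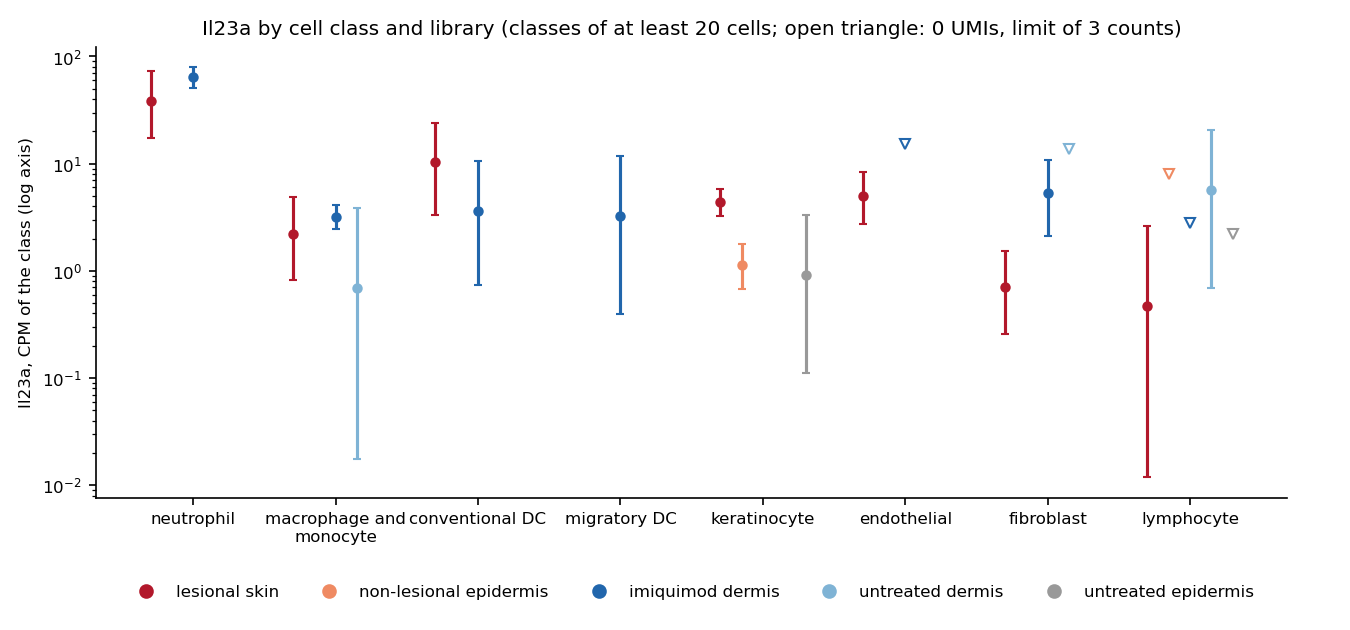
Il23a in CPM (log axis) by gated cell class and library, for classes of at least 20 cells; bars are exact Poisson 95% intervals and open triangles mark 0 UMIs at the limit of 3 counts. Neutrophils are highest in both libraries that have them, at 38.3 CPM in lesional skin and 63.9 CPM in imiquimod dermis.

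Il12b, the subunit shared with IL-12, was rare, and by the main gate every UMI lay in a myeloid or an unassigned cell. Lesional skin held 10 UMIs in 4 cells, imiquimod dermis 29 in 9 cells, untreated dermis 15 in 2 cells, and both epidermal libraries 0. In imiquimod dermis 14 UMIs lay in 4 of 49 migratory dendritic cells at 22.9 CPM (12.5 to 38.4), and 12 UMIs lay in unassigned cells. With the looser gate or with clusters, 6 of the 29 lay in 1 neutrophil. In lesional skin 7 of the 10 lay in 2 macrophages or monocytes and 2 in a migratory dendritic cell. In untreated dermis 14 of the 15 came from 1 cell, so levels of Il12b in myeloid cells were not compared between libraries.

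Il23a and Il12b were never seen in the same cell. In lesional skin 57 cells held Il23a and 4 held Il12b, in imiquimod dermis 182 and 9, and in untreated dermis 5 and 2. With so few Il12b cells, joint detection would have been rare at this depth even in cells that make both. Il12a, which pairs with Il12b to form IL-12, was not among the genes with enough UMIs to compare in any class.

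Il23r, the signalling chain of the IL-23 receptor, was held mainly by lymphocytes where dermis was sampled, beside unassigned cells in imiquimod dermis. Lymphocytes held 68 of 71 UMIs in lesional skin, 40 of 97 in imiquimod dermis (47 were unassigned), 22 of 29 in untreated dermis and 1 of 1 in untreated epidermis. Non-lesional epidermis held 4 UMIs, none in gated lymphocytes. By CPM, lymphocytes were at 31.9 in lesional skin (24.7 to 40.4), 37.4 in imiquimod dermis (26.7 to 50.9) and 63.0 in untreated dermis (39.5 to 95.4). Neighbours in this order had overlapping intervals, which does not show equal levels, and neither inflamed library was above untreated dermis. The lesional and untreated intervals met only at their edges. The ratio of imiquimod to untreated dermis was 0.593 (0.344 to 1.05).

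Within γδ cells Il23r was at 56.0 CPM in lesional skin (39.6 to 76.8), 23.3 in imiquimod dermis (9.36 to 47.9) and 66.9 in untreated dermis (35.6 to 114), on 38, 7 and 13 UMIs. Untreated epidermis had 1 UMI in 327 γδ cells (0.732 CPM) and non-lesional epidermis 0 in 128. In untreated dermis 12 of the 13 UMIs lay in type 17 γδ cells, seen in 10 of 25. Among imiquimod αβ cells, 27 of 30 Il23r UMIs lay in the 35 cells of the type 17 gate, at 78.7 CPM. In untreated epidermis the 33 γδ cells that met the gate held 0 Il23r UMIs, which allows up to 17.5 CPM.

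Il12rb1, the chain common to the IL-23 and IL-12 receptors, was found in all 5 libraries and was most frequent in γδ cells of the epidermis. The epidermal intervals overlapped that of lesional γδ cells, for untreated epidermis only at the edge, which does not show equal levels. γδ cells had 39.8 CPM in lesional skin (26.2 to 57.8), 61.8 in non-lesional epidermis (39.2 to 92.7), 29.9 in imiquimod dermis (13.7 to 56.8), 25.7 in untreated dermis (8.35 to 60.0) and 70.3 in untreated epidermis (56.96 to 85.9). The gap between non-lesional and untreated epidermis was within counting error, with a ratio of 0.879 (0.532 to 1.40). Lesional and imiquimod lymphocytes also did not separate, with a ratio of 1.003 (0.632 to 1.63). In non-lesional epidermis 141 of 186 Il12rb1 UMIs were in unassigned cells, 137 of them in lymphocyte clusters, and its keratinocytes held it in 1.31% of cells.

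The partner chain of Il12rb1 differed between γδ cells of the epidermal libraries and those of the inflamed libraries. Epidermal γδ cells had Il12rb2, the IL-12 receptor chain, at 293 CPM in non-lesional epidermis and 349 CPM in untreated epidermis, with almost no Il23r. Lesional γδ cells had 7.36 CPM of Il12rb2 against 56.0 CPM of Il23r, and imiquimod γδ cells 13.3 against 23.3. In untreated dermis γδ cells Il12rb2, at 108 CPM, was above Il23r, as in the epidermal libraries. All 21 of its UMIs lay in γδ cells outside the type 17 gate, which held 1 of the 13 Il23r UMIs. Of γδ cells with Il12rb1, 15 of 20 in non-lesional and 57 of 80 in untreated epidermis also held Il12rb2.

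**Figure D5:**
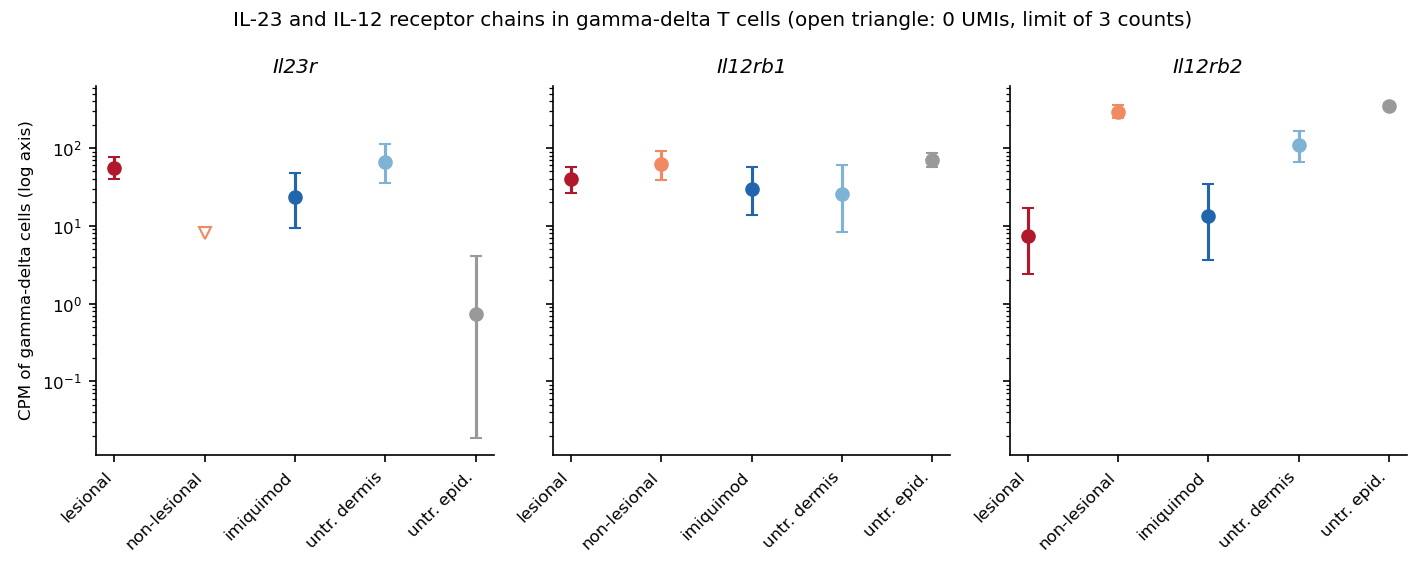
CPM of Il23r, Il12rb1 and Il12rb2 (log axis) in gated γδ T cells of the 5 libraries; bars are exact Poisson 95% intervals and an open triangle marks 0 UMIs at the limit of 3 counts. Il12rb2 is at 293 and 349 CPM in the epidermal libraries, where Il23r has 0 and 1 UMIs.

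In single lymphocytes both receptor chains met in 11 of 60 lesional and 8 of 22 imiquimod Il23r cells. Il17a was seen in 21 of 60 lesional Il23r cells and in 8 of 22 imiquimod ones, and Il22 in 2 of 60 and 16 of 22. Imiquimod Il23r cells thus more often held Il22 than Il17a, while the lesional ones more often held Il17a.

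Other genes of the pathway were described by lists, with a gene counted as higher or lower at 2-fold or more. The list of 15 type 17 regulators and surface genes stood out in lesional lymphocytes against non-lesional ones, with 14 higher and 1 lower and a median log2 ratio of 2.61, against -0.18 over all genes. Over all 8896 genes, 42.5% passed 2-fold, 19.6% higher and 22.9% lower. Cd163l1, a scavenger receptor of dermal γδ cells, was 37.9-fold higher (12.9 to 184), and Rora, a nuclear receptor, 34.4-fold (15.7 to 93.8). Blk, a kinase of IL-17 γδ cells, was at least 18.2-fold higher and Ahr, the aryl hydrocarbon receptor, was at 0.308. The lesional lymphocytes were a mix of γδ and αβ cells and the non-lesional ones nearly all γδ, and the part of this in the list was not tested.

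Between lesional and imiquimod lymphocytes 10 of the 15 were higher, 1 lower and 4 between, with a median of 1.25 against 0.51 over all genes, where 40.3% passed 2-fold, 33.9% higher and 6.38% lower. Zbtb16, a transcription factor of innate-like T cells, was 8.44-fold higher (3.75 to 23.6) and Maf 4.84-fold (4.09 to 5.76), while Batf was at 0.490 (0.409 to 0.586). Imiquimod against untreated lymphocytes had 2 higher, 4 lower and 9 between, where 30.8% of all genes passed 2-fold, 9.03% higher and 21.8% lower. Ccr6, a chemokine receptor, was 5.49-fold higher (2.44 to 15.3) and Batf 3.58-fold (2.33 to 5.74), while Zbtb16 was at 0.163 and Rora at 0.399. In non-lesional against untreated epidermal lymphocytes 7 of the 15 had enough UMIs, 1 higher and 2 lower, where 16.3% of all genes passed 2-fold, 7.96% higher and 8.39% lower.

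Of 9 genes related to IL-23 and IL-12 signalling, 6 could be compared between lesional and non-lesional lymphocytes, 4 higher and 2 lower, where 19.6% of all genes were higher and 22.9% lower. Tyk2 and Jak2, the kinases of the IL-23 receptor, were 6.38-fold (1.70 to 53.6) and 4.05-fold higher (1.81 to 11.2), and Il12rb2 was at 0.0288 of the non-lesional level. Between lesional and imiquimod lymphocytes 4 of 5 were higher and none lower, with Il27ra 2.79-fold and Tyk2 2.62-fold higher, where 33.9% of all genes were higher and 6.38% lower. Between imiquimod and untreated dermis 1 of 6 was higher and 2 lower, with Il12rb2 at 0.109, where 9.03% of all genes were higher and 21.8% lower.

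Genes that IL-17 and IL-22 are known to induce were read in keratinocytes. Lesional against non-lesional keratinocytes had 3 of 9 higher and 2 lower, where 29.8% of all genes passed 2-fold, 21.7% higher and 8.08% lower. S100a9 was 19.2-fold higher (15.96 to 23.2), Lcn2 18.9-fold and S100a8 14.9-fold, all antimicrobial proteins, while the chemokine genes Ccl20 and Cxcl2 were at 0.150 and 0.296. Non-lesional against untreated keratinocytes had 3 of 8 higher and 1 lower, where 7.04% of all genes passed 2-fold, 4.99% higher and 2.05% lower. S100a8 was 13.7-fold higher (3.73 to 114), Cxcl2 6.76-fold (3.84 to 13.2) and Il1f9, which encodes IL-36γ, 2.55-fold, while Lcn2 was at 0.371. By the gate non-lesional epidermis had 1674 keratinocytes and 1 myeloid cell, and by clusters 1572 and 211. The part of any myeloid cells among its gated keratinocytes in these ratios was not tested. The gated lymphocytes of non-lesional epidermis held 0 UMIs of Il17a, Il17f and Il22, with 24, 15 and 12 in its unassigned cells. Joint clustering put the cells with these unassigned UMIs among lymphocytes, of which it found 939 against 129 by the gate.

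Of the receptor and adaptor genes for IL-17 and IL-22, keratinocytes had 0 of 6 past 2-fold between non-lesional and untreated epidermis, where 7.04% of all genes passed. Between lesional and non-lesional keratinocytes 1 of 7 passed, where 29.8% of all genes did. It was Il22ra2, a soluble receptor that binds IL-22, at 0.109 (0.0715 to 0.160). In dermis the target genes were read in fibroblasts. Imiquimod against untreated fibroblasts had 6 of 10 higher, none lower and 4 between, with a median log2 ratio of 3.56 against -0.21. Of all genes 34.5% passed 2-fold, 12.8% higher and 21.7% lower. Of the 4 between, Cxcl1 and Nfkbiz lay just inside the cut, at 0.505 (0.410 to 0.625) and 0.502 (0.321 to 0.807). The untreated class was 24 fibroblasts, against 156 in imiquimod dermis. The chemokine gene Cxcl5 was at least 88.9-fold and Lcn2 at least 81.0-fold higher. S100a8 was 47.3-fold higher (18.4 to 174) and S100a9 63.4-fold (21.6 to 308). Imiquimod γδ cells also held S100a8 in 97.3% of cells, and the part of free RNA was not tested. In macrophages and monocytes, imiquimod against untreated dermis had 3 of 7 target genes higher and 1 lower, where 27.0% of all genes passed 2-fold, 6.24% higher and 20.7% lower. Lesional against imiquimod macrophages had 2 of 7 higher and 3 lower, where 32.1% passed 2-fold, 27.6% higher and 4.51% lower, with Cxcl1 12.7-fold higher and S100a9 at 0.0130.

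Profiles like those of the 7 genes were ranked by Pearson correlation of log2(CPM + 5) over 33 library-by-class sums, among 13651 genes. These points share libraries and depth, and most genes are near 0 in most of them, so the values are descriptions. The nearest to Il17a was Il17f (0.936), followed by Podnl1, Snai3, Ccr6 and Pdcd1 (0.869 to 0.857). The nearest to Il17f were Prr29 (0.937), Il17a, Ccr6, Actn2 and Tnfrsf25. Il22 was nearest to Il17f (0.867), then Prr29, its duplicate Iltifb, Gzmb and Tnfrsf8 (0.740). Il23r was nearest to Ikzf3 (0.971), Icos, Tnfrsf25, Actn2 and Il2ra, and Il12rb1 to Cd247 (0.941), Trgv2, Tcrg-C4, B4galnt4 and Jakmip1. Il23a was nearest to Cxcr1 (0.838), Amer2, Arg2, Vnn3 and Trim30b. Il12b, on 54 UMIs, was nearest to Cacna1s (0.839), Eaf2, Nkpd1, Bco2 and Atp4a. Its highest sum, 94.1 CPM in 28 untreated dermis myeloid cells without a finer class, came from 14 UMIs in 1 cell. Il17a and Il17f were thus among each other's nearest, and Il23a had correlations from -0.219 to -0.0724 with the other members.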

How the data were processed

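Each library was made from 1 group with the 10x Chromium 3′ v3 chemistry after enzyme digestion and removal of dead cells by FACS, per the labels. The submitters' processing notes list mm10 (GRCm38), Cell Ranger and CASAVA, and the matrix headers give software version 3.0.2. The deposited values are the authors' UMI counts per gene and called barcode, with no normalization. Barcodes had at least 200 genes and under 20% mitochondrial UMIs, and top Scrublet doublet scores were removed at a rate proportional to the barcodes called (2 to 215 a library; Scrublet in scanpy 1.11.5). Total UMIs per library ranged from 3020790 to 41258087.

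A cell took the class with the largest share of markers detected, given at least 3 markers and a second class at most at 0.7 of the best; otherwise it was unassigned. The alternatives were a stricter gate (4 markers, 0.5), a looser one with no limit on the second class, and joint clustering without the 7 genes. UMIs were summed per class and scaled to CPM. Intervals are exact Poisson, Clopper-Pearson or conditional binomial, at 95%, with 0 counts taken as a limit of 3. For the lists and the counts over all genes, a gene needed 10 UMIs in the pair of libraries and 10 CPM in either, in classes of at least 20 cells; the ratios of the 7 genes had no such minimum. Python 3.11.15, numpy 2.4.6, scipy 1.17.1 and pandas 2.3.3 were used. The intervals and the 2-fold count were tested on simulated data.

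The 7 genes are always named, with the 2 to 4 list members of largest ratio and the 5 genes most alike in profile for each gene with at least 50 UMIs. The genes and lists were chosen with earlier results of these data known. With 1 library a group, no test was run. Ifi30 was not in the features used, and Il36a and Il36g were matched as Il1f6 and Il1f9.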

Additional observations from a re-analysis of the deposited data

How the results depend on the processing

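No paired analysis was possible because each group had 1 library and no result came from a test. Of 153 values under alternatives for 18 results, 95 stayed within counting error. A further 57 moved beyond it or changed between a limit and a measured ratio. The remaining 1, of a ratio past 2-fold, turned direction. Counting that one, 4 ratios changed sign, the other 3 from main ratios under 2-fold. The causes were not tested. Leaving out the highest cell, and the shares of Il23a in neutrophils and keratinocytes and of Il22 among the cytokine UMIs, were added after seeing the data, as were the γδ and αβ values of Il17a, Il17f and Il22 with the looser gate and with clusters. As log2 ratios in lymphocytes, Il17a in imiquimod against untreated dermis (main 1.88) turned to -0.37 with the stricter gate and was 3.45 with all barcodes, 3.61 with doublets kept, 2.71 with the looser gate, 2.85 with clusters, 1.31 thinned, 1.38 as a mean over cells and 3.08 without the highest cell. Il17f there (5.64) was 4.32 as a mean over cells, and Il22 (8.29) was 6.65 with the stricter gate. Il17a in lesional skin against imiquimod dermis (0.64) was -1.09 with all barcodes, -1.08 with doublets kept, 2.68 with the stricter gate, 0.099 with the looser gate, 0.075 with clusters, 1.03 as a mean over cells and 1.35 without the highest cell, so its direction is not settled. Il17f (-2.88) was -3.36, -3.35, -2.68, -3.06, -3.27, -2.40 and -2.45 with all barcodes, doublets kept, stricter gate, looser gate, clusters, thinning and the mean over cells. Il22 (-8.04) was -6.45 with the stricter gate and -6.37 as a mean over cells. Il17a in lesional skin against non-lesional epidermis (at least 6.52) was at least 2.29 with the stricter gate, 10.88 with the looser gate, 6.67 with clusters and at least 5.70 thinned. The γδ share of Il17a was 14.8% (stricter gate), 66.7% (thinned) and 17.4% (without the highest cell) in imiquimod dermis, and 76.4% thinned in lesional skin. The myeloid share of Il23a was 12.9% (stricter), 48.0% (looser) and 13.8% (thinned) in imiquimod dermis and 26.4% (looser) in lesional skin. That of Il12b was 3.45% (stricter), 79.3% (looser), 17.2% (clusters) and 36.8% (without the highest cell) in imiquimod dermis, and 100% with the looser gate or thinned in lesional skin. The neutrophil share of imiquimod Il23a was 5.85% (stricter), 48.3% (looser), 66.2% (clusters) and 32.3% (thinned), and the keratinocyte share of lesional Il23a 25% (thinned). The Il22 share of the cytokine UMIs was 47.2% with all barcodes or doublets kept, 43.6% (stricter), 53.9% (looser), 50.7% (clusters), 55.4% (thinned) and 59.4% (without the highest cell) in imiquimod dermis, and 0.610% (thinned) and 0.847% (without the highest cell) in lesional skin. Il17a in non-lesional against untreated epidermis had no value with the main gate, since both were 0, and Il12rb1 in epidermal γδ cells (-0.19) stayed within counting error under each alternative run, with a change of sign when thinned (0.35). The depth of 1 library a group limits every ratio to counting error, and untreated dermis, with 85 lymphocytes, limits the low levels most.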

Other observations

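Other lymphocyte cytokine genes differed between the libraries too. Ifng, the type 1 cytokine, was 11.4-fold higher in lesional than in imiquimod lymphocytes (7 to 19.7), on 385 against 17 UMIs, and Tnf was 3.05-fold higher (2.29 to 4.12); 4 of 7 cytokine genes with enough UMIs were at least 2-fold higher and none lower, where 33.9% of all genes were higher and 6.38% lower. In imiquimod against untreated dermis, 2 of 9 were higher and 5 lower, where 9.03% of all genes were higher and 21.8% lower. The type 2 cytokine genes Il13 and Il5 were at 0.0601 (0.0227 to 0.136) and 0.0466 (0.00890 to 0.156) of the untreated level there, and Il10 was 8.81-fold higher (1.45 to 361) on 27 against 1 UMIs.

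Genes for cytokines that promote IL-17 producers also differed between non-lesional and untreated keratinocytes, 3 of 3 with enough UMIs being higher, where 4.99% of all genes were higher and 2.05% lower. Il1b was 24.3-fold higher in non-lesional than in untreated keratinocytes (6.67 to 201), Il18 at least 7.36-fold and Tgfb1 4.19-fold. Lesional keratinocytes had Il1b at 0.0740 of the non-lesional level (0.0434 to 0.119). The gate found 1 myeloid cell and 1674 keratinocytes in non-lesional epidermis, where clusters found 211 and 1572. The part of any myeloid cells among the gated keratinocytes in these ratios was not tested. In imiquimod against untreated macrophages and monocytes, Il6 was 5.56-fold (2.80 to 12.9), Tgfb1 2.88-fold and Il1b 2.73-fold higher.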
